A study of Mus musculus with 12 samples.

Results

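The shared distal H2A.Z regions with INO80 are stretches of chromatin where the histone variant H2A.Z was called in spermatogenic cells with and without the remodeller INO80, where INO80 itself was also called, and which lie away from the ends of protein-coding genes. The regions were chosen by measured values, the peak calls of all 3 lists. H2A.Z peaks of Ino80cKO and Ino80WT that overlap by at least 1 bp were merged, and a merged region was kept when it held peaks of both genotypes, overlapped an INO80 peak and lay over 1 kb from both annotated ends of every protein-coding gene of the mm10 RefSeq table. This gave 3982 regions of 35393 merged H2A.Z regions (11.3%). They are 36.5% of the 10914 shared regions over 1 kb from gene ends and 27.7% of the 14354 shared regions with INO80. Their H2A.Z and INO80 peaks are described below with no test, and tests were run only on their positions, which the rule did not use beyond the 1 kb limit. The main comparison set is the other 6932 shared distal regions, which overlap no INO80 peak.

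Chromatin of spermatogenic cells, from testes of mixed-background mice at postnatal day 18 (P18), was digested with micrococcal nuclease. Antibodies to H2A.Z were used on Ino80cKO cells, whose Ino80 gene is removed by the testis-specific recombinase Stra8-Cre, and on Ino80WT cells, and antibodies to INO80 on wild-type cells. The Stra8 promoter is active in germ cells before meiosis, so cells that never expressed the recombinase keep the gene. Each list of peaks stands for 2 libraries and holds positions only. No value below therefore has a replicate error, the read depth is unknown, and nothing in the lists shows the deletion itself or the cell types present.

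H2A.Z replaces histone H2A in some nucleosomes next to transcription starts and at enhancers, and it is known to share many of these places with polycomb complexes in stem cells. INO80 is the motor subunit of a complex that slides nucleosomes and acts on H2A.Z nucleosomes, while the related SRCAP complex puts H2A.Z in. In the male germ line many developmental genes keep both active and repressive chromatin marks, a state called poised or bivalent.

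The word distal holds for the outer ends of genes but not for every transcription start. The RefSeq start windows used here give 1 transcription start per gene (300 bp, 250 bp before the start and 50 bp after it). This start can lie inside the outer limits of a gene that has several starts. Other starts of such a gene were not looked at, so a region off the windows can still lie on a start. Of the 3838 regions on chromosomes for which windows were used here, 1119 (29.2%) overlapped such a window. Sequences from 3 of them are shown as examples: Hivep2 and Rreb1, which encode zinc finger transcription factors, and Gnas, an imprinted locus that encodes a G protein subunit. All 3 windows lie whole within a shared distal region with INO80. For contrast, the windows of Palld, which encodes an actin-binding protein, and Zfp874b, a zinc finger gene, lie whole within shared distal regions without INO80. They are from RefSeq (GRCm38.p6, the assembly that mm10 names), 5′ to 3′ on the strand of the gene, with CpG dinucleotides in capitals.
Hivep2 start window, chr10:13966129-13966428, plus strand: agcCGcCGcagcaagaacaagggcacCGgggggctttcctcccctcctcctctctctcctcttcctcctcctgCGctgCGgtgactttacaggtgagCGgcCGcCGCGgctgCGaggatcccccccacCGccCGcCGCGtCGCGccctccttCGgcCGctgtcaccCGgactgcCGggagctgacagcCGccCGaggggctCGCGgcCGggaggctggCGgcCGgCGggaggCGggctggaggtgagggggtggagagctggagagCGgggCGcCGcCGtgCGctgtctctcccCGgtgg
Rreb1 start window, chr13:37825788-37826087, plus strand: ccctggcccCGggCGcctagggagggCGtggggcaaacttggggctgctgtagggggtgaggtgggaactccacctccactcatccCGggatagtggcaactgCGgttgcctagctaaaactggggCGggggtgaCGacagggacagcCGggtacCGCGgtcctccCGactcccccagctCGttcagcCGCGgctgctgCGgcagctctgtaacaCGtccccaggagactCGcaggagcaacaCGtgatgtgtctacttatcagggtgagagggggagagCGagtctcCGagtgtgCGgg
Gnas start window, chr2:174329756-174330055, plus strand: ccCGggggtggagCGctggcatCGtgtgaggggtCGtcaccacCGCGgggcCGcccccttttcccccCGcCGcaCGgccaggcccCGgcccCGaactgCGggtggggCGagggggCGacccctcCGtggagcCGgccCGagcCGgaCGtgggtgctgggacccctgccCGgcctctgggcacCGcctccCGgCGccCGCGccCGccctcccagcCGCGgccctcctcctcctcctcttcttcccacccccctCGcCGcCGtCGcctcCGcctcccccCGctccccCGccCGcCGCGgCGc
Palld start window, chr8:61591090-61591389, minus strand: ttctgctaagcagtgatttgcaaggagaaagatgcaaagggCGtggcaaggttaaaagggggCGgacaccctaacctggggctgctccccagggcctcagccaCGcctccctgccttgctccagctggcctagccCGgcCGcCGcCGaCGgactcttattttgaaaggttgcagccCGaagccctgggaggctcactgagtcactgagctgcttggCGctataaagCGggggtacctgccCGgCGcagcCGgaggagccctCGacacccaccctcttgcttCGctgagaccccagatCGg
Zfp874b start window, chr13:67484204-67484503, minus strand: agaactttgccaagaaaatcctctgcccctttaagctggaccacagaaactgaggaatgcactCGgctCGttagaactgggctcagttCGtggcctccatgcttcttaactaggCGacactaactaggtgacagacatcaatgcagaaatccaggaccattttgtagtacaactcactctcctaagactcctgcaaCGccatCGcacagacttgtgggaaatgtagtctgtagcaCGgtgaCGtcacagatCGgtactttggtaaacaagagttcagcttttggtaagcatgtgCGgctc

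The windows of Hivep2, Rreb1 and Gnas hold 35, 21 and 40 CpGs, and those of Palld and Zfp874b hold 17 and 10. The median was 23 CpGs over all windows on regions with INO80 and 10 over those on regions without. Rreb1 thus lies below the median of its set and Palld above that of its own. At Hivep2 the region chr10:13964479-13967683 lay 2.87 kb from the nearest gene end, with an INO80 peak of 3836 bp and H2A.Z over 2623 bp in Ino80cKO and 3205 bp in Ino80WT. At Rreb1 the region chr13:37825006-37827939 lay 46.6 kb inside the gene's outer end, with 2973 bp of INO80 and H2A.Z over 2912 bp in Ino80cKO and 2934 bp in Ino80WT. At Gnas the region chr2:174328573-174331178 had 4618 bp of INO80 and H2A.Z over 2477 bp in Ino80cKO and 2463 bp in Ino80WT. The H2A.Z outline was thus narrower in Ino80cKO at Hivep2 and of almost the same width in both genotypes at Rreb1 and Gnas. The Palld region had no INO80 and held H2A.Z over 1709 bp in Ino80cKO and 1503 bp in Ino80WT, and the Zfp874b region held it over 686 bp in Ino80cKO and 1348 bp in Ino80WT.

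MicroRNA genes form another group with named products. Overlap was counted with the hairpin, and the transcription starts of these genes were not used. Of 1005 RefSeq miRNA hairpins, 17 (1.69%) overlapped 14 shared distal regions with INO80, and 12 (1.19%) overlapped one without INO80. Mature sequences of 6 of them are given with the seed, bases 2 to 8, in capitals, because the seed sets which transcripts a miRNA pairs with. They are from RefSeq.
mmu-let-7i-5p: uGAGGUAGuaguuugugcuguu
mmu-miR-132-3p: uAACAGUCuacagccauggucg
mmu-miR-212-3p: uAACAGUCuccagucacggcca
mmu-miR-9-5p: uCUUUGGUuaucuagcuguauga
mmu-miR-193a-3p: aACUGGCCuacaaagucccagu
mmu-miR-203-3p: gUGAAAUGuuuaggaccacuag

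miR-132-3p and miR-212-3p share the seed AACAGUC, and both hairpins overlap 1 region, chr11:75172259-75173687, with an INO80 peak of 2496 bp. The Mir132 hairpin overlaps this region only at its edge, and the mature miR-132-3p sequence lies outside it. In the region H2A.Z covered 600 bp in Ino80cKO and 1429 bp in Ino80WT. At let-7i, of the family named after its nematode founder, H2A.Z covered 687 bp in Ino80cKO and 1367 bp in Ino80WT under 1315 bp of INO80. At Mir9-3, 1 of the genes of the neural miRNA miR-9, it covered 721 bp in Ino80cKO and 1131 bp in Ino80WT, 36.6 kb from any protein-coding gene end. At all 3 of these regions the outline was narrower in Ino80cKO. It was slightly wider in Ino80cKO at Mir193a, with 1444 bp against 1263 bp in Ino80WT. At Mir203, a miRNA of stratified epithelia, it covered 776 bp in Ino80cKO and 884 bp in Ino80WT. The region of Mir7671 had 474 bp in Ino80cKO and 1281 bp in Ino80WT, and that of Mir5620 had 1214 bp in Ino80cKO and 1699 bp in Ino80WT. Mir1895 had 1459 bp in Ino80cKO and 1453 bp in Ino80WT, and Mir760 had 951 bp in Ino80cKO and 952 bp in Ino80WT. Over the 14 regions the ratio of H2A.Z bp, Ino80cKO over Ino80WT, ran between 0.178 and 2.92 with a median of 0.796, and 10 were narrower in Ino80cKO. This count is close to the share over all 3982 regions, of which 71.1% were narrower in Ino80cKO with a median ratio of 0.883.

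INO80 peaks chose these regions, so their widths are given as a description. All 18139 INO80 peaks had a median width of 678 bp. A wide peak meets the overlap rule more readily and counts once for each region it overlaps. The INO80 peak of a region, or the sum of several, was a median 814 bp wide (quartiles 385 and 1570 bp), against a median of 733.5 bp for the merged H2A.Z region (498 and 1020 bp). INO80 was wider than the H2A.Z region at 2113 of 3982 (53.1%) and covered it whole at 1570 (39.4%), and the median region had 91.3% of its length under INO80. The centre of INO80 lay a median 116.5 bp from the centre of the region, and within 147 bp, the width of the narrowest peak in the lists and about the DNA of 1 nucleosome, at 2335 (58.6%). INO80 peaks of 3 kb or more lay over 281 regions (7.06%). At shared gene-end regions with INO80 the median INO80 peak was 855 bp and the offset of its centre was also 116.5 bp. INO80 covered 87.6% of the region centres, and 1 kb to the right of the centre it still covered 17.0%, where H2A.Z covered 3.94% in Ino80cKO and 5.32% in Ino80WT.

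**Figure D1:**
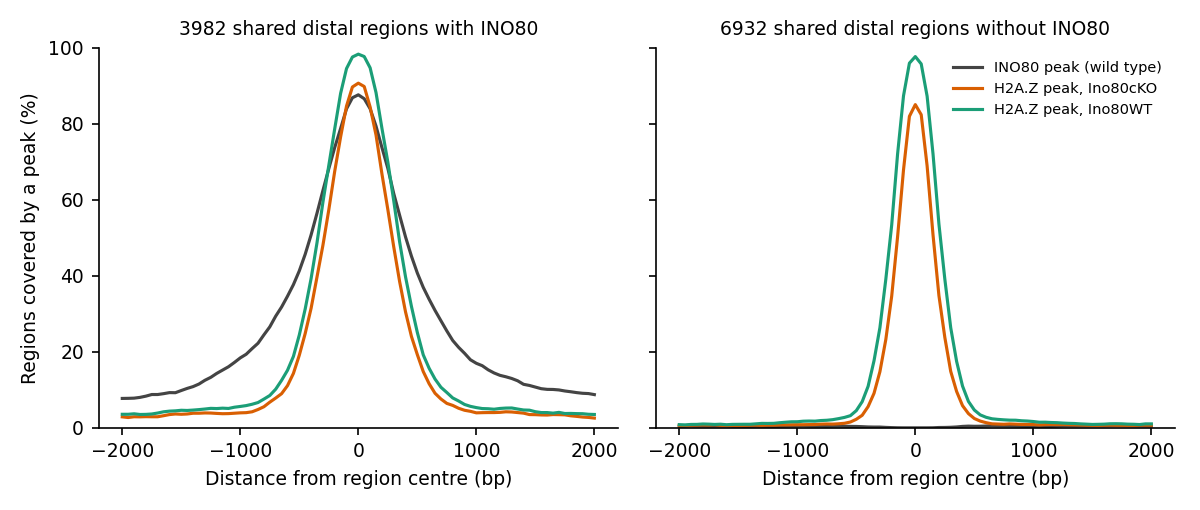
Share of regions (%) in which each position, given as distance from the region centre (bp), lies under a peak, for the INO80 list, the Ino80cKO H2A.Z list and the Ino80WT H2A.Z list. On the left are the 3982 shared distal regions with INO80 and on the right the 6932 without it; the INO80 curve on the left is broader than either H2A.Z curve, and H2A.Z is narrower in Ino80cKO on both sides.

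H2A.Z covered fewer bp in Ino80cKO than in Ino80WT at most of these regions. The median was 558 bp in Ino80cKO (quartiles 330 and 847 bp) and 680 bp in Ino80WT (440 and 973 bp), and the median ratio within a region was 0.883 (0.681 and 1.02). The outline was narrower in Ino80cKO at 2831 regions (71.1%), wider at 1141 (28.7%) and equal at 10. Without INO80 the median was 278 bp in Ino80cKO and 414 bp in Ino80WT, the median ratio was 0.767 and 75.6% were narrower in Ino80cKO. At gene ends with INO80 the median was 725.5 bp in Ino80cKO and 863 bp in Ino80WT, the median ratio was 0.902 and 71.4% were narrower in Ino80cKO. The median ratio over all 23485 shared regions was 0.867. The Ino80cKO list as a whole holds 26199 peaks of median width 422 bp, and the Ino80WT list 33827 peaks of 460 bp. Whether depth or the peak threshold differed between the lists was not tested, as the lists hold neither.

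The spread of the ratio differed in shape between the sets. H2A.Z in Ino80cKO covered under 0.5 of the Ino80WT width at 482 of the regions with INO80 (12.1%), at 21.5% of those without INO80 and at 8.58% of gene-end regions with INO80. Ino80cKO covered over 1.5 times the Ino80WT width at 181 (4.55%). The Ino80cKO peaks lay whole within the Ino80WT outline at 1753 regions (44.0%), and the reverse held at 499 (12.5%). Most regions held 1 peak of each genotype (3810, 95.7%). A single Ino80WT peak stood against 2 or more Ino80cKO peaks at 135 regions (3.39%), and the opposite at 36 (0.904%). The share with such a split in Ino80cKO was 1.28% without INO80 and 6.56% at gene ends with INO80. These shares describe lists that chose the regions, and no test was made of their differences.

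The order of the ratios depended on the genotype used to match widths. Among regions with 501 to 750 bp of H2A.Z in Ino80WT, the median ratio was 0.860 for the 1039 regions with INO80, 0.631 for those without and 0.902 at gene ends with INO80. With 1001 to 1500 bp in Ino80WT it was 0.870 with INO80, 0.577 without and 0.887 at gene ends with INO80. For the narrowest regions, of 147 to 250 bp in Ino80WT, it was above 1 in all 3 sets, at 1.17, 1.04 and 1.09 in the same order. In this bin the Ino80cKO width cannot fall below 147 bp, the narrowest peak of the lists, but has no such limit above. The values above 1 are therefore not read as widening in Ino80cKO. Matched instead on width in Ino80cKO, the order turned round. With 501 to 750 bp in Ino80cKO the ratio was 0.900 with INO80 and 0.928 without, and with 1001 to 1500 bp it was 0.971 with INO80 and 1.03 without. A difference in the ratio between regions with and without INO80 therefore cannot be read from these lists apart from the choice of matching.

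**Figure D2:**
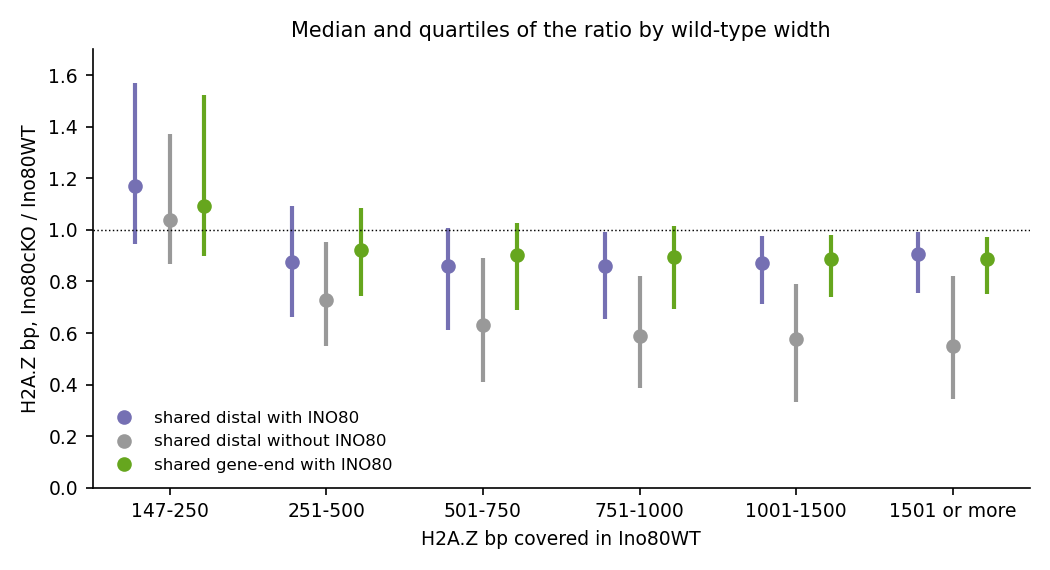
Median ratio of H2A.Z bp, Ino80cKO over Ino80WT (dots), with quartiles (lines), in bins of the H2A.Z bp covered in Ino80WT. Shared distal regions with INO80 lie close to gene-end regions with INO80 and above shared distal regions without INO80 in every bin; the order against regions without INO80 turns round when bins are set by Ino80cKO width.

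Split by INO80 peak width, start window, gene body or chromosome X, the median ratio within the regions ran between 0.850 and 0.911. It was 0.850, 0.871, 0.911 and 0.893 in 4 equal bins of INO80 peak width, from narrow to wide. It was 0.911 at the 1119 regions on a start window and 0.865 at the 2719 others compared with the windows, and 0.889 inside protein-coding genes against 0.873 outside them. On chromosome X it was 0.867, against 0.883 on autosomes. With the widest 50% of each list alone, 1509 regions remained and the ratio was 0.929, against 0.892 without INO80.

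The 10 widest regions spanned 2777 to 3680 bp. The widest, chr17:39843012-39846691, lies on Rn18s-rs5, annotated as a pseudogene and named for 18S ribosomal RNA, with 5857 bp of INO80 and H2A.Z over 3622 bp in Ino80cKO and 3353 bp in Ino80WT. Copies of such a sequence share reads, so this region is uncertain. The next, chr13:3358092-3361506, lies 177 kb from the nearest end of Gdi2, with 3907 bp of INO80 and H2A.Z over 2399 bp in Ino80cKO and 3156 bp in Ino80WT. Inside Cpeb2, which encodes a regulator of mRNA polyadenylation, a region of 3227 bp had 2908 bp of INO80 and H2A.Z over 3060 bp in Ino80cKO and 3130 bp in Ino80WT. Inside Nr3c1, the glucocorticoid receptor gene, H2A.Z covered 3027 bp in Ino80cKO and 3047 bp in Ino80WT under 3060 bp of INO80. Inside Unc45b, which encodes a myosin chaperone, it covered 3106 bp in Ino80cKO and 3079 bp in Ino80WT. At 19.6 kb from Nrf1, on the long noncoding RNA gene Mirc35hg, it covered 2547 bp in Ino80cKO and 2914 bp in Ino80WT. Inside Kctd1, which encodes a repressor of AP-2 factors, it covered 2692 bp in Ino80cKO and 2870 bp in Ino80WT, with 5045 bp of INO80. Inside Kcnn2, a potassium channel gene, it covered 2392 bp in Ino80cKO and 2777 bp in Ino80WT. Hivep2 and Rreb1, given above, complete the 10. Over these 10 the ratio ran between 0.760 and 1.08, and none was near the low tail described next.

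Among the 2764 regions with at least 500 bp of H2A.Z in Ino80WT, the ratio had both tails. That limit is on Ino80WT width, the denominator of the ratio, so it keeps low ratios more readily than high ones. Over all regions, with no such limit, the ratio ran between 0.141 and 5.33. Among the highest of the 2764 was the region at the start window of Sema4c, a semaphorin gene. It had 1982 bp in Ino80cKO and 667 bp in Ino80WT (2.97) under 2085 bp of INO80. A region 340.1 kb from Rragc had 1094 bp in Ino80cKO and 514 bp in Ino80WT (2.13), Arhgap27 had 1565 bp in Ino80cKO and 745 bp in Ino80WT (2.10), and Pi16 had 967 bp in Ino80cKO and 502 bp in Ino80WT (1.93). The 5 lowest ratios ran between 0.141 and 0.157, and each had 147 to 169 bp of H2A.Z in Ino80cKO, about the length of 1 nucleosome. The lowest was chr6:51077347-51078470, with 159 bp in Ino80cKO and 1124 bp in Ino80WT. Kcna2, a potassium channel gene, had 149 bp in Ino80cKO and 1030 bp in Ino80WT. Tfap2c, which encodes an AP-2 transcription factor of early germ cells, had 169 bp in Ino80cKO and 1160 bp in Ino80WT under 3538 bp of INO80. Dpp10, which encodes a potassium channel partner, had 147 bp in Ino80cKO and 956 bp in Ino80WT at its start window, and a region 7.94 kb from Shq1 had 147 bp in Ino80cKO and 939 bp in Ino80WT. The narrowest peak anywhere in the Ino80cKO list is 147 bp wide.

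The regions with INO80 lay inside and near genes more often than the regions without it. Of 3982, 2509 (63.0%) lay inside a protein-coding gene, against 34.1% of 6932 without INO80 (odds ratio 3.29, 95% interval 3.03 to 3.57; two-sided Fisher's exact test, Benjamini-Hochberg adjusted over 5 tests, adjusted p = 8.17e-188). Beyond the 1 kb limit they also lay closer to gene ends: 54.0% were within 10 kb, against 27.4% without INO80 (odds ratio 3.11, 2.87 to 3.38; exact test, adjusted p = 2.39e-167). That odds ratio was 2.03 with the widest 50% of peaks. Distances of 1 to 5 kb held 38.6% of regions with INO80 and 14.5% of those without, and distances over 100 kb held 6.65% with INO80 and 17.6% without. The median distance was 8.38 kb with INO80 and 24.9 kb without. These tests compare lists of regions and not animals. Neighbours on a chromosome can depend on each other, which makes the p-values too small. The gene table gives neither exons nor introns, so these classes were not used here.

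The classes also differed in overlap with a RefSeq start window. It was found at 1119 of 3838 regions with INO80 (29.2%) and 498 of 6655 without (7.48%; odds ratio 5.09, 4.53 to 5.72; exact test, adjusted p = 1.48e-185), a comparison added after seeing the data. Regions with INO80 are also wider. Over 10 groups of merged width the Mantel-Haenszel odds ratio was 3.17, with the widest 50% of peaks it was 2.50, and away from the ends of all genes it was 9.22. Windows of protein-coding genes were overlapped by 22.9% of regions with INO80 and 3.13% without, and windows of long noncoding RNA (lncRNA) genes by 8.42% with INO80 and 4.49% without. Seen from the windows, 4.33% of all 32851 overlapped a region with INO80 (4.87% of protein-coding and 3.35% of lncRNA windows) and 1.73% overlapped one without INO80.

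Ends of genes that are not protein-coding lay within 1 kb of 1007 regions with INO80 (25.3%) and of 17.7% without (odds ratio 1.57, 1.43 to 1.73; exact test, adjusted p = 1.67e-20). The call of the exact test ended with the widest 50% of peaks (odds ratio 1.01, adjusted p = 0.907). LncRNA genes were the most frequent kind, nearest to 647 regions with INO80 (16.2%) and 10.8% without. Chromosome X held 65 regions with INO80 (1.63%) and 41 without (0.591%; odds ratio 2.79, 1.85 to 4.24; exact test, adjusted p = 2.27e-07). The direction turned round with the widest 50% of peaks (odds ratio 0.893; exact test, adjusted p = 0.907). Among shared distal regions on X, 61.3% had INO80, against 25.8 to 46.5% on single autosomes. At gene ends, X held 1.67% of shared regions with INO80 and 4.59% of those without.

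**Figure D3:**
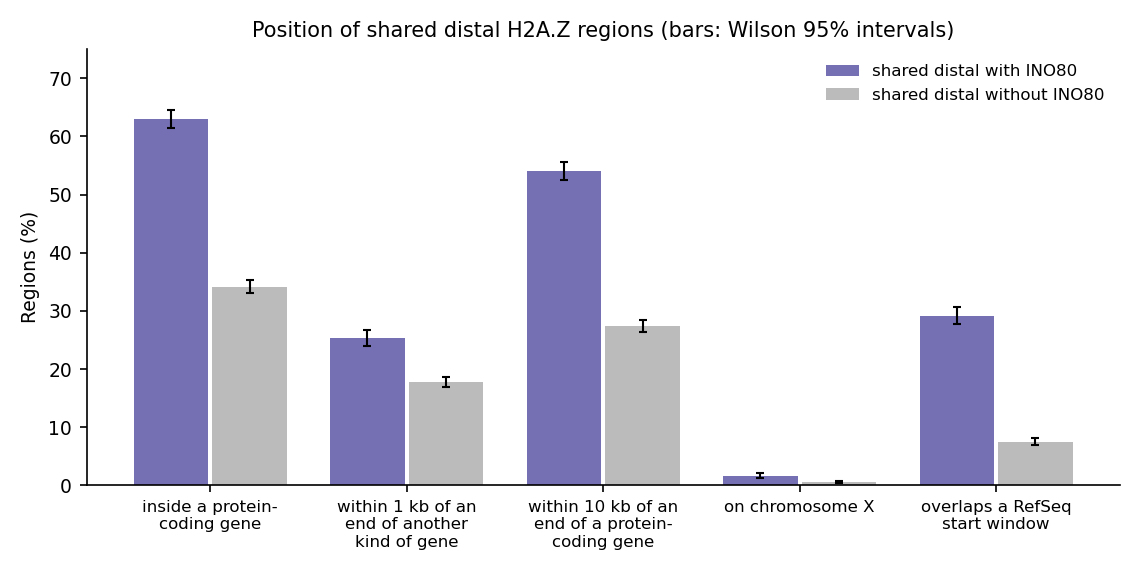
Share of regions (%) with each of 5 positions, for shared distal regions with INO80 (left bar of each pair) and without INO80 (right bar), with 95% Wilson intervals that cover counting error only. The left bar is higher in all 5 pairs, and the widest gaps are for lying inside a gene (63.0% against 34.1%) and within 10 kb of a gene end (54.0% against 27.4%).

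The start windows under these regions were rich in CpG. The 1423 windows that overlap a region with INO80 had a median GC content of 64.7%, 23 CpGs in 300 bp and a CpG observed/expected ratio of 0.759. The 569 windows that overlap a region without INO80 had 54.3% GC, 10 CpGs and a ratio of 0.481. The 11238 windows over 1 kb from protein-coding gene ends that overlap no H2A.Z region had 47.3% GC, 3 CpGs and a ratio of 0.208. The order held within protein-coding windows (ratios 0.786, 0.552 and 0.238) and within lncRNA windows (0.706, 0.450 and 0.201). The observed/expected ratio divides the CpGs found by those that the C and G content alone would give.

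**Figure D4:**
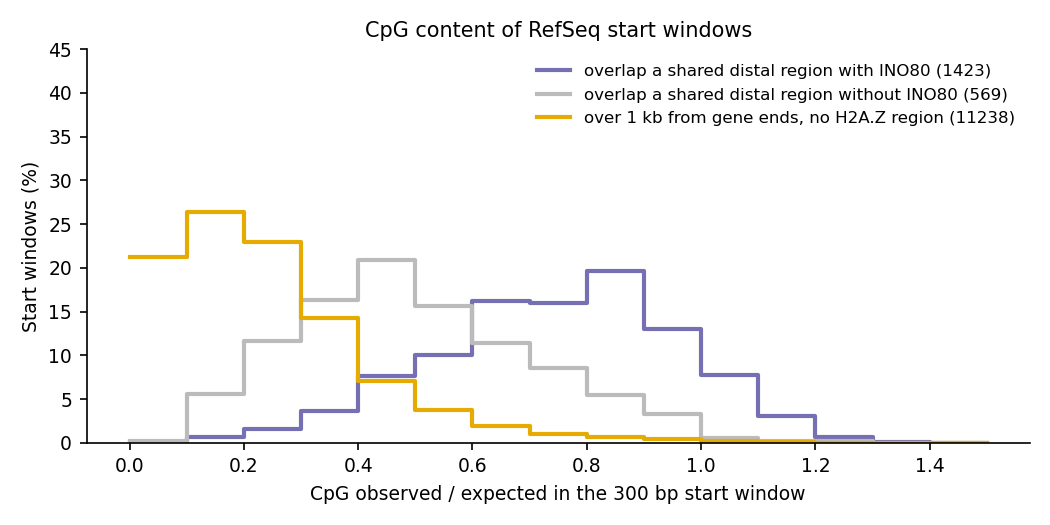
Distribution of the CpG observed/expected ratio over 300 bp RefSeq start windows: share of windows (%) in bins of the ratio, for windows that overlap a shared distal region with INO80 (1423), one without INO80 (569), or no H2A.Z region over 1 kb from gene ends (11238). The 3 curves peak in different bins, with INO80 windows to the right.

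Motif letters were searched on both strands of the same windows. The Sp factor motif GGGCGG stood in 69.1% of windows with INO80, 37.1% of windows at regions without INO80 and 9.14% of windows with no H2A.Z, against 35.7% of all windows. It contains a CpG, as do the ETS and CREB motifs. The ETS motif CCGGAAGT stood in 4.78% of windows with INO80, 10.02% at regions without INO80 and 0.587% with no H2A.Z (3.89% of all). The motif GCCATNTT of YY1, which binds DNA as part of the INO80 complex, stood in 5.76% of windows with INO80 (95% Wilson interval 4.67 to 7.10%), 3.69% at regions without INO80 (2.43 to 5.58%) and 5.41% with no H2A.Z, against 6.05% of all windows. The CREB motif TGACGTCA stood in 2.18% of windows with INO80 and 2.46% at regions without INO80 (1.79% of all). The YY1 share was thus close to the share of all windows. No motif contains another, and the intervals cover counting error only.

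INO80 and H2A.Z lay mostly on the transcribed side of these starts. For the 934 regions with starts on a single strand within 100 bp of each other, the INO80 centre lay a median 149 bp downstream of the start (quartiles 1 and 299 bp) and downstream at 75.1%. The centre of H2A.Z lay a median 97.3 bp downstream in Ino80cKO and 92 bp in Ino80WT, downstream at 69.6% in Ino80cKO and 70.0% in Ino80WT. The rule kept only regions where H2A.Z peaks of both genotypes overlap, so their centres were bound to lie close together. The near equality of the 2 genotypes is therefore not read as a result.

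Of 21887 protein-coding genes, 2091 (9.55%) held a region inside the gene body and 3023 (13.8%) were the gene that held a region or lay nearest to one. The first share rose with gene length, at 2.89% of genes under 10 kb, 9.62% of 10 to 50 kb, 17.3% of 50 to 200 kb and 31.2% of longer genes. Most of the 2091 genes held 1 region (1741), 273 held 2 and 58 held 3. Tnrc18, 99.1 kb long, held most with 7, which carried 12276 bp of INO80 and H2A.Z over 2578 bp in Ino80cKO and 4104 bp in Ino80WT. Bcor, the X-linked gene of a corepressor in a polycomb complex, held 6 with 8357 bp of INO80 and H2A.Z over 2424 bp in Ino80cKO and 3345 bp in Ino80WT. Gse1 held 6, with H2A.Z over 3043 bp in Ino80cKO and 4545 bp in Ino80WT, and Nfia, a nuclear factor I gene, held 6 with 4688 bp in Ino80cKO and 4846 bp in Ino80WT. Ltbp4, which encodes a matrix protein that binds latent TGF-beta, the spectrin gene Sptbn4 and the zinc finger gene Zfp536 held 5 each, with ratios of summed H2A.Z of 0.761, 0.825 and 0.868.

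The genes with 4 regions number 12, of which the first 3 by name are given here. Bcl11a, which encodes a transcriptional repressor, had H2A.Z over 3530 bp in Ino80cKO and 2925 bp in Ino80WT (ratio 1.21). At the calcium channel gene Cacna1a, 4 regions had 2681 bp in Ino80cKO and 3233 bp in Ino80WT. Cyp26b1, whose product degrades retinoic acid and keeps it from germ cells in the fetal mouse testis, had a low ratio. Its 4 regions lie under a single INO80 peak of 7960 bp and had H2A.Z over 1456 bp in Ino80cKO and 3554 bp in Ino80WT (ratio 0.410). Of all 19 genes with 4 or more regions, 16 had less H2A.Z summed over their regions in Ino80cKO and 3 had more, with ratios of 0.410 to 1.33. Taken singly, 71.1% of all 3982 regions were narrower in Ino80cKO, so this count is not read as a trait of these genes.

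Genes of 12 lists, chosen with earlier results of these data known, were counted beside the share over all genes. A region lay inside 32 of 62 homeobox and paired patterning genes, and 45 (72.6%) were the gene of a region or nearest to one, against 13.8% of all genes. For forkhead, Sox, Gata and T-box factors the counts were 17 inside and 32 nearest of 44 genes (72.7%). For ligands, receptors and effectors of Wnt, Fgf, Bmp, Notch and Hedgehog signalling they were 23 and 31 of 56 (55.4%). Hox cluster genes, which are short (median 3.74 kb, against 17.2 kb for all genes), gave 12 and 15 of 39 (38.5%), and genes of polycomb complexes 9 and 12 of 36 (33.3%). Germ cell lists gave other counts. Spermatogonial genes gave 3 and 11 of 30 (36.7%), meiotic recombination and synapsis genes 2 and 4 of 52 (7.69%), piRNA pathway genes 3 and 4 of 26 (15.4%) and spermiogenesis genes 2 and 2 of 39 (5.13%). Genes of the INO80, SRCAP and TIP60 complexes and of H2A.Z gave 1 and 3 of 29 (10.3%), cytosolic ribosomal proteins 2 and 5 of 42 (11.9%), and markers of somatic testis cells 9 and 10 of 40 (25%). The share of somatic cells in the preparation cannot be seen in peak lists, and its part in these counts was not tested. The lists have few genes and were read as counts beside the background, with no test. They were not set against regions without INO80 or against the distance between genes. Whether a high count is particular to regions with INO80 was therefore not tested.

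**Figure D5:**
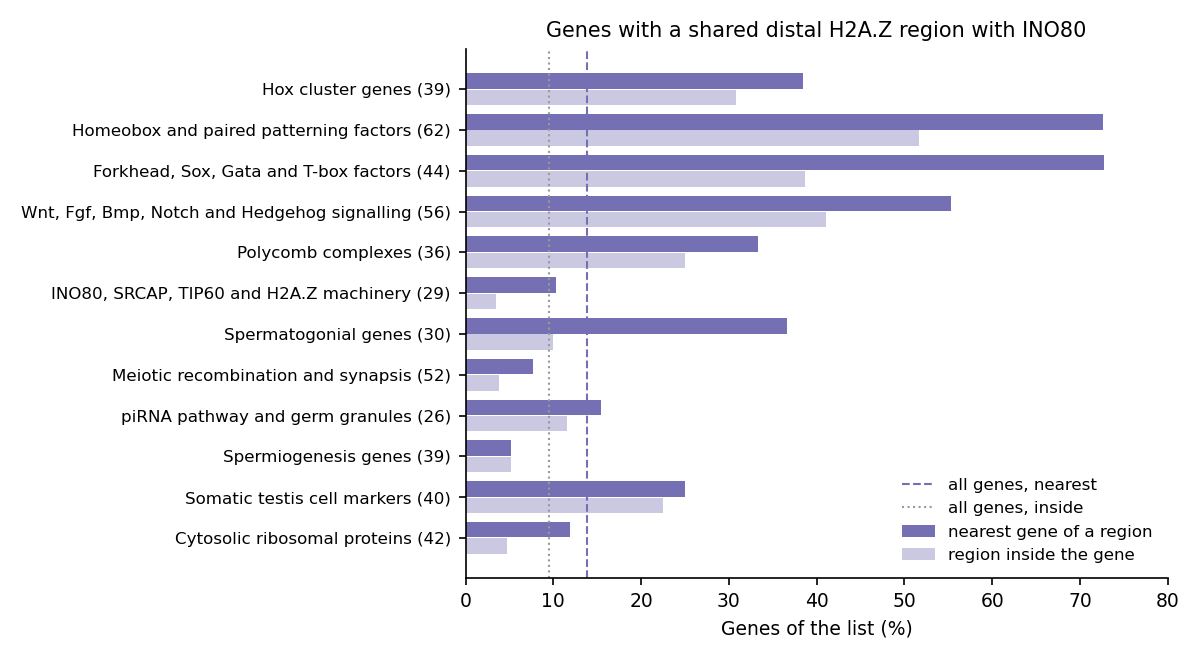
Share of the genes of each list (%; number of genes in parentheses) that hold a shared distal H2A.Z region with INO80 inside the gene (light bars) or are the gene of such a region or nearest to one (dark bars). The dotted and dashed lines mark the shares over all protein-coding genes, 9.55% and 13.8%. The 4 developmental lists, the polycomb list and the somatic markers lie above their lines in both bars. The piRNA genes lie only slightly above both lines. The spermatogonial genes lie above the dashed line, and their light bar (10%) is close to the dotted line.

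In most lists more regions were narrower than wider in Ino80cKO. Of regions at homeobox and paired genes 64 of 93 were narrower in Ino80cKO (median ratio 0.885), at forkhead, Sox, Gata and T-box genes 36 of 58 (0.835), at signalling genes 50 of 63 (0.823), at Hox genes 13 of 19 (0.778), at polycomb genes 18 of 27 (0.865) and at the markers of somatic testis cells 15 of 19 (0.782). Over all 3982 regions it was 2831 (0.883). Spermatogonial genes had 7 of 14 narrower (0.985), and meiotic genes 1 of 4 (1.22).

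Pax2, a paired-box factor of kidney and brain, had the most regions of the homeobox and paired list, with 8. Its 2 widest lie inside the gene on start windows, where H2A.Z covered 1122 bp in Ino80cKO and 1108 bp in Ino80WT at chr19:44835713-44836964, and 964 bp in Ino80cKO and 1111 bp in Ino80WT at chr19:44756406-44757516. A region 74.2 kb away had 199 bp in Ino80cKO and 548 bp in Ino80WT under 2095 bp of INO80. Over the 8 regions of Pax2 the ratio ran between 0.363 and 1.03. At Lhx2, a LIM homeobox gene with 5 regions, the widest had 1411 bp in Ino80cKO and 1585 bp in Ino80WT, and a region 54.3 kb away was wider in Ino80cKO, with 772 bp against 155 bp in Ino80WT. At the neural factor gene Pou3f3, also with 5, the region 1.32 kb inside the gene end had 775 bp in Ino80cKO and 1478 bp in Ino80WT under 5492 bp of INO80.

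The Hox genes with most regions were Hoxb3, Hoxa3 and Hoxd11, which set position along the body axis. At Hoxb3, with 3, H2A.Z at the widest covered 963 bp in Ino80cKO and 921 bp in Ino80WT under 2613 bp of INO80. At Hoxa3, with 2, it covered 322 bp in Ino80cKO and 747 bp in Ino80WT at a start window. At Hoxd11, 2 regions share 1 INO80 peak of 5614 bp, and they moved apart: 762 bp in Ino80cKO and 561 bp in Ino80WT at the first, and 292 bp in Ino80cKO and 629 bp in Ino80WT at the other. The outline was thus wider in Ino80cKO at one and narrower at the other under the same INO80 peak.

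Gata2 and Gata3 encode zinc finger factors of blood and other lineages. At Gata2, 2 regions inside the gene share an INO80 peak of 4850 bp, and H2A.Z covered 690 bp in Ino80cKO and 953 bp in Ino80WT at one and 212 bp in Ino80cKO and 790 bp in Ino80WT at the other. The widest region, 2.70 kb outside the gene, had 1073 bp in Ino80cKO and 1939 bp in Ino80WT. At Gata3, with 4 regions, the widest had 190 bp in Ino80cKO and 606 bp in Ino80WT under 3273 bp of INO80. Foxp4, a forkhead gene, had 6, of which the widest lies 48.97 kb away with 600 bp in Ino80cKO and 1019 bp in Ino80WT.

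Among signalling genes, the ligand gene Bmp4 had 5 regions. At its start window H2A.Z covered 930 bp in Ino80cKO and 839 bp in Ino80WT, and 2.62 kb outside the gene it covered 421 bp in Ino80cKO and 760 bp in Ino80WT. The ligand gene Wnt10a had 4, all narrower in Ino80cKO, as were 71.1% of all 3982 regions. The widest at Wnt10a had 736 bp in Ino80cKO and 1025 bp in Ino80WT. The receptor gene Notch3 had 5, and the widest, 20.2 kb away, had 559 bp in Ino80cKO and 987 bp in Ino80WT. Shh, a Hedgehog ligand gene, had the region nearest to the 1 kb limit, 1001 bp from a gene end, with H2A.Z over 1194 bp in Ino80cKO and 1454 bp in Ino80WT under 2968 bp of INO80. Just inside the limit followed Tbc1d24 at 1002 bp, with 398 bp in Ino80cKO and 412 bp in Ino80WT, and Zbed3 at 1004 bp, with 1235 bp in Ino80cKO and 1254 bp in Ino80WT. Just outside it stood regions at Sprn at 999 bp, with 344 bp in Ino80cKO and 265 bp in Ino80WT, Anks3 at 997 bp, with 628 bp in Ino80cKO and 622 bp in Ino80WT, and Adra1b at 996 bp, with 880 bp in Ino80cKO and 812 bp in Ino80WT.

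Of the polycomb genes, Bcor had 9 regions counting those nearest to it. The widest, inside the gene, had H2A.Z over 734 bp in Ino80cKO and 1258 bp in Ino80WT under 2906 bp of INO80, and another 29.2 kb outside had 398 bp in Ino80cKO and 1106 bp in Ino80WT. Cbx8, which encodes a chromodomain subunit of polycomb complex PRC1, had 5, of which 3 share an INO80 peak of 6594 bp. H2A.Z at those 3 covered 502 bp, 792 bp and 373 bp in Ino80cKO, against 703 bp, 722 bp and 658 bp in Ino80WT. Kdm2b, which recruits a PRC1 complex to CpG-rich DNA, had 3, and the widest had 1364 bp in Ino80cKO and 1697 bp in Ino80WT. The regions of the INO80, SRCAP and TIP60 list lay at Kat5, the acetyltransferase of TIP60, with 447 bp in Ino80cKO and 733 bp in Ino80WT, near Ruvbl1, a helicase shared by these complexes, with 154 bp in Ino80cKO and 390 bp in Ino80WT, and 34.9 kb from Yy1, with 422 bp in Ino80cKO and 595 bp in Ino80WT. All 3 were narrower in Ino80cKO, as were 71.1% of all 3982 regions, so this count is not read as a trait of these genes.

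Among germ cell genes, the spermatogonial genes Foxo1, Ccnd1 and Pax7 had 2 regions each. One lies 56.7 kb from Foxo1, a factor of stem cell maintenance, with 178 bp in Ino80cKO and 742 bp in Ino80WT, and the other 51.2 kb from it with 681 bp in Ino80cKO and 663 bp in Ino80WT. At the cyclin gene Ccnd1 they had 531 bp and 403 bp in Ino80cKO, against 793 bp and 418 bp in Ino80WT, under 1 INO80 peak of 2589 bp. At Pax7 both were wider in Ino80cKO, with 582 bp and 314 bp, against 494 bp and 208 bp in Ino80WT. Of meiotic genes, Spata22, whose product acts in recombination, held a region at its start window with 863 bp in Ino80cKO and 1172 bp in Ino80WT under a narrow INO80 peak of 185 bp. A region 12.8 kb from Prdm9, which places recombination hotspots in the mouse, had 486 bp in Ino80cKO and 302 bp in Ino80WT, and one 13.2 kb from Terb2, a gene of telomere attachment in meiosis, had 623 bp in Ino80cKO and 459 bp in Ino80WT. The piRNA and germ granule genes Tdrd6 and Tdrd7 held 1 each, with 1071 bp and 610 bp in Ino80cKO, against 917 bp and 1057 bp in Ino80WT. The spermiogenesis genes Zpbp and Brdt held 1 each, with 809 bp and 498 bp in Ino80cKO, against 911 bp and 566 bp in Ino80WT. Few of these genes had a region, and their differences went both ways.

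Markers of somatic testis cells with most regions were Nr2f2, Pdgfra and Gata4. Nr2f2, a factor of interstitial cells, had 5, among them one 70.2 kb away with 432 bp in Ino80cKO and 1223 bp in Ino80WT, and the widest, inside the gene, with 1542 bp in Ino80cKO and 1612 bp in Ino80WT under 4747 bp of INO80. At Pdgfra, a receptor gene of interstitial cells, 3 regions share an INO80 peak of 4358 bp, with 1242 bp, 489 bp and 448 bp in Ino80cKO, against 1239 bp, 1128 bp and 573 bp in Ino80WT. At Gata4, a Sertoli and Leydig cell factor, 3 regions had 556 bp, 378 bp and 493 bp in Ino80cKO, against 663 bp, 645 bp and 599 bp in Ino80WT.

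Neighbouring regions formed groups: 805 (20.2%) lay within 10 kb of another in 337 groups, of which 59 had 3 or more. The largest group stood apart from all others. It held 49 regions on chr6:114497240-114637280, 140.0 kb with no protein-coding gene inside, 13.9 kb from Hrh1 on one side and 5.85 kb from Atg7 on the other. INO80 covered 83378 bp in 49 peaks there, against H2A.Z over 17827 bp in Ino80cKO and 29904 bp in Ino80WT. H2A.Z was narrower in Ino80cKO at 37 of the 49, with a median ratio of 0.538 and a range of 0.190 to 2.16. Over all 3982 regions 71.1% were narrower in Ino80cKO, with a median ratio of 0.883. The whole span held 63 INO80 peaks of median width 1703 bp, and their centres followed each other at a median spacing of 2345 bp (quartiles 2165 and 2498 bp). Every one of its 49 shared regions had INO80, beside 10 regions in Ino80WT alone and 4 in Ino80cKO alone. Even spacing of this kind is known from tandem repeats, whose copies share reads. The sequence of the span was not used here, so whether it is such a repeat was not tested, and its 49 regions are uncertain as separate loci. Without them the median ratio over the other 3933 regions was 0.885.

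The next groups were far smaller. A group of 8 on chr6:47739966-47773164 holds 2 lncRNA genes and no protein-coding gene, with H2A.Z over 9490 bp in Ino80cKO and 9277 bp in Ino80WT. At Tnrc18, 5 regions over 8.31 kb share a single INO80 peak of 10631 bp and had 1780 bp in Ino80cKO and 2811 bp in Ino80WT. Around Mir9-3, 5 regions over 19.8 kb had 2467 bp in Ino80cKO and 4259 bp in Ino80WT, and all 5 were narrower in Ino80cKO. Near Skida1, 5 regions had 4782 bp in Ino80cKO and 4363 bp in Ino80WT in sum, while 3 of the 5 were narrower in Ino80cKO and the median ratio was 0.929. Near Nr2f1, a nuclear receptor gene, 4 regions had 1740 bp in Ino80cKO and 1687 bp in Ino80WT, with 1 of the 4 narrower in Ino80cKO. The share narrower in Ino80cKO over all 3982 regions was 71.1%, and groups this small are not read against it.

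Noncoding genes other than miRNAs included structural RNAs. A tRNA gene end lay within 1 kb of 42 regions, with a median ratio of 0.815 and 32 narrower in Ino80cKO, near the values over all regions (0.883 and 71.1%). The widest of these, chr1:171079108-171081183, holds genes of several tRNAs under 4810 bp of INO80, with H2A.Z over 1601 bp in Ino80cKO and 2076 bp in Ino80WT. Copies of tRNA genes share reads and are uncertain. On Terc, the gene of telomerase RNA, H2A.Z covered 420 bp in Ino80cKO and 611 bp in Ino80WT under 575 bp of INO80. The lncRNA gene Lncpint had 2358 bp in Ino80cKO and 2771 bp in Ino80WT, and Dleu2, host of miRNAs lost in leukaemia, had 2198 bp in Ino80cKO and 2249 bp in Ino80WT. Terc was picked after its values were seen.

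Outside protein-coding genes lay 1473 regions, at a median 16.7 kb from the nearest such gene. The farthest lay 1631 kb from Slitrk5, with H2A.Z over 192 bp in Ino80cKO and 255 bp in Ino80WT under 314 bp of INO80, beside a pseudogene. Regions 1427 kb from Pcdh20, a protocadherin gene, and 1392 kb from Tenm3, a teneurin gene, had 866 bp and 1053 bp in Ino80cKO, against 1020 bp and 1477 bp in Ino80WT. A region 1164 kb from Zeb2, a zinc finger homeobox gene, had 477 bp in Ino80cKO and 524 bp in Ino80WT, and one 977 kb from Mms22l had 586 bp in Ino80cKO and 581 bp in Ino80WT. Of these 5, 4 have the end of a noncoding gene or a pseudogene within 1 kb, and the one near Zeb2 has none. Over all 3982 regions the share with such an end was 25.3%, and 5 regions are too few to be read against it.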

How the data were processed

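ChIP-seq libraries of spermatogenic cells at postnatal day 18 were grouped by their titles into 6 groups of 2 libraries (INO80 ChIP, H2A.Z ChIP in Ino80cKO and Ino80WT, and the input of each). The 3 peak lists that the authors deposited, 1 per ChIP group, hold a chromosome, start and end per peak and no score, height, p-value or summit. Per the submitters' processing notes, the build was mm10 and the tools included Bowtie2, SAMtools, deepTools and MACS2. Not given in the sources used here: their versions and roles, the threshold for a peak and how replicate libraries were joined. Micrococcal nuclease prefers accessible and AT-rich DNA, which can shift peak outlines. Input libraries and signal per library were not analysed here. A peak present in 1 list and missing from another can depend on depth and threshold, which are unknown, and peak width is an imperfect stand-in for strength.

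Peaks of both H2A.Z lists were merged at an overlap of at least 1 bp. Genes and start windows came from NCBI RefSeq (GRCm38.p6); 32851 start windows and 1005 miRNA hairpins were used, none of the start windows on chromosome 18. Widths are in bp covered by the peaks of a genotype, and INO80 width is that of the INO80 peaks overlapping a region. A region's gene is the gene that holds it or else the nearest one.

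Shares of regions were tested with the two-sided exact test of Fisher, with exact 95% intervals of the odds ratio and Benjamini-Hochberg adjustment over 5 tests (threshold 0.05). Other intervals are Wilson 95% intervals, and intervals cover counting error only. The regions and the 12 gene lists (497 entries, 491 distinct genes, 496 entries matched, 5 of them through an older symbol) were chosen with earlier results of these data known.

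Named are the 10 widest regions; the 5 highest and 5 lowest ratios among regions with at least 500 bp in Ino80WT; the 10 genes with most regions inside (the last 3 taken by name from 12 with equal counts); the 5 farthest regions; up to 10 noncoding genes and 10 miRNA genes, widest region first; the 3 regions on each side of the 1 kb limit; and from each list up to 3 genes with most regions. Predicted genes were passed over, and 1 of the regions with the highest ratios is not reported here. Neighbouring groups of regions and the sequences shown were picked after their values were seen.

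Alternatives were an overlap of at least 50% of the shorter peak, gene ends at 500 bp and 3 kb, the widest 50% of each list, the ends of all genes, INO80 on a peak of both genotypes, 10 groups of merged width, and, added after seeing the data, leaving out regions on start windows together with chromosome 18, and leaving out a group of 49 regions. The software was Python 3.11.15 with pandas 2.3.3, scipy 1.17.1, numpy 2.4.6 and matplotlib 3.10.9. Merged regions and their INO80 overlaps equalled those of bedtools 2.31.1, and the tests were tested on simulated data.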

Additional observations from a re-analysis of the deposited data

How the results depend on the processing

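With the widest 50% of each list, the number of shared distal regions with INO80 was 1509 in place of 3982, and their median ratio of H2A.Z bp, Ino80cKO over Ino80WT, was 0.929 in place of 0.883. The ratio was 0.865 without the regions on start windows and those on chromosome 18. In the other 6 alternatives it stayed between 0.875 and 0.886, and the number of regions in the other 7 lay between 2719 and 4567. The odds ratio for chromosome X turned round to 0.893 under that setting, and that for ends of genes that are not protein-coding was 1.01 and no longer passed the threshold; the cause was not tested. Both kept their direction and their call in the other alternatives, with odds ratios of 2.76 to 3.52 for X and 1.39 to 1.80 for the gene ends. The odds ratio for lying inside a gene (2.37 to 4.06, 9 alternatives), within 10 kb of a gene end (2.03 to 3.52, 9 alternatives) and on a start window (2.50 to 9.22, 8 alternatives) kept direction and call throughout. Counting the ends of all genes left no region near the end of another gene by construction, so that share has no value there. No paired analysis was possible because each group has 1 pooled peak list and no values per library, and for the same reason no library could be left out. The unknown depth sets no stated precision, and all widths rest on peak outlines whose threshold is not given.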
